A study of Drosophila melanogaster with 4 samples.

Results

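The ecdysteroid synthesis genes of Drosophila melanogaster, the genes by which flies make their steroid moulting hormone from dietary sterol, were followed in whole females after treatment with juvenile hormone III (JH III). The set named 9 genes, nvd, spo, phm, dib, sad, shd, ecd, woc and Start1, and its members were found by gene symbol. Of these, 8 were measured, each by 1 probe set naming that gene alone, out of 13966 probe sets on the array apart from controls. The gene phm is listed under the symbol phtm by the array annotation and was matched through its gene number. No probe set naming nvd alone was found, and nvd is not analysed here.

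The females carried the yellow and white markers (strain y,w by the labels), and all of them, controls included, ate a diet without yeast from emergence until day 5 as adults. Per the labels this diet lowers the titre of endogenous juvenile hormone. They were then chilled on ice, and each received 0.1 µl of JH III at 187 mM in acetone, which comes to 18.7 nmol, or 0.1 µl of acetone alone. Frozen 12 hours later, 30 whole females made up each RNA sample, with 2 samples per treatment and 1 Affymetrix DrosGenome1 array per sample. Because whole bodies were used, fewer cells of a type and less RNA per cell cannot be told apart.

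Flies take up sterol with their food and turn it into ecdysone in a chain of oxidations. The Rieske oxygenase Neverland (nvd) opens the chain, poorly understood middle steps that need Spook (spo) follow, and the hydroxylases Phantom (phm), Disembodied (dib) and Shadow (sad) complete ecdysone. Shade (shd) then converts ecdysone to the active hormone in peripheral tissues such as the fat body. In larvae the chain runs in the prothoracic gland, and in adult females the ovary is the known site, with the follicle cells around each egg chamber as a source. The labels ask about opposing effects of juvenile hormone and the moulting hormone on antimicrobial peptides, and the synthesis genes show whether transcripts for making the moulting hormone differed between the treatments.

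No measured gene of the synthesis chain passed the test between JH III and acetone females. As deposited, all 8 had a positive difference, with a median of 0.44 on the log2(signal + 83) scale, while 3 of 8 were positive after scaling to background controls. In 0 of the 8 did the JH III arrays lie clear of the acetone arrays. By limma's moderated test with Benjamini-Hochberg adjustment over 10474 probe sets, 0 of the 7 members tested were called at 0.05, and 0 had an unadjusted p under 0.05, by limma or by the t-test that the labels name. Over the whole array 17 probe sets (0.162%) were called, and 764 (7.29%) had an unadjusted p under 0.05. The groups stood clear of each other in 37.5% of all probe sets tested, 22.2% with JH III higher and 15.3% with JH III lower. The median difference of all probe sets tested was 0.10 on the same scale, and 56.1% of them were positive.

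The 4 arrays were not alike. The deposited signals had been scaled to 1 common level, with 2% trimmed means of 500.1 in all 4 arrays. After that scaling the median probe set stood at 307 and 268 in JH III replicates 1 and 2 and at 210 and 252 in acetone replicates 1 and 2. The bacterial and phage hybridization controls, 9 probe sets for RNA added to each sample, had geometric means of 54170 and 22915 with JH III and of 7794 and 20718 with acetone. Their order over the arrays was thus the order of the medians, with JH III replicate 1 at the top and acetone replicate 1 at the bottom. The 3' to 5' signal ratio of GAPDH, a sign of RNA length, was 2.32 and 5.75 with JH III and 15.5 and 10.2 with acetone. That of eIF-4a was 18.3 and 18.9 with JH III and 74.95 and 46.8 with acetone, while that of actin, 3.40 and 16.7 with JH III and 35.6 and 14.2 with acetone, overlapped. Acetone replicate 1 alone came from another chip lot. The acetone arrays were 1 and 2 in scan order and fluidics module, and the JH III arrays 3 and 4. Scan order and module thus cannot be told apart from treatment. Across probe sets, JH III replicate 1 correlated with the other 3 arrays at r between 0.785 and 0.790, and those 3 with each other at 0.861 to 0.883. The part of these differences in the results below was not tested.

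Background on each array was taken from 23 control probe sets for bacterial, yeast and mouse genes that were not among the hybridization controls. Whether any was added during labelling is not given in the labels. The 95th percentile of these, called the control level here, was 369 and 240 in JH III replicates 1 and 2 and 139 and 295 in acetone replicates 1 and 2. Of the 8 members, 3 lay above the control level on all 4 arrays (sad, ecd and Start1), 5 on some of them and 0 on none. Over the whole array 29.3% of probe sets lay above it on all arrays and 25.8% on none. Of the 5 cytochrome P450 enzymes among the members, 1 (sad) was above it on all 4 arrays, beside 24 of 85 probe sets for other P450 genes of the fly.

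**Figure D1:**
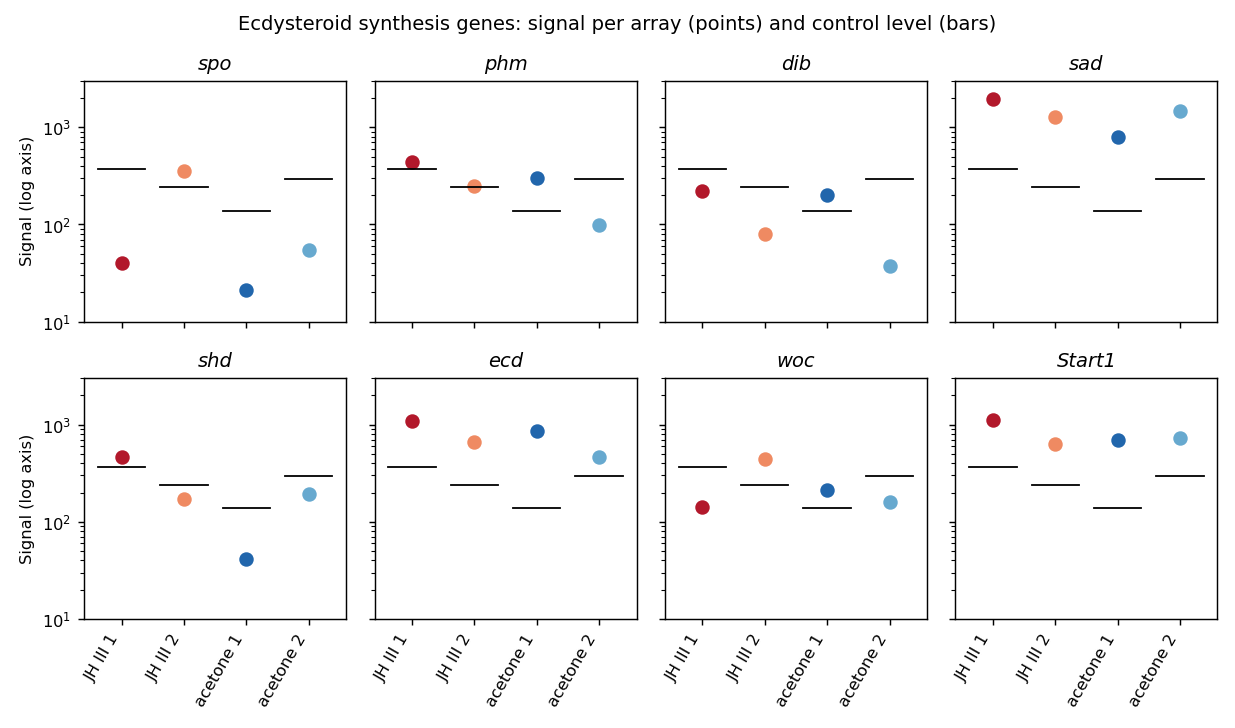
Signal of each measured gene (vertical log axis, in the authors' scaled units) on the JH III and acetone arrays, 1 point per array, with a bar at that array's control level. Only sad, ecd and Start1 have every point above its bar, and in no gene do both JH III points lie above, or both below, both acetone points.

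The first enzyme with a probe set, spo, belongs to the middle steps of the chain and is the Spook gene used in embryo and ovary. Its probe set (148227_at) read 40.2 and 357 with JH III and 21.3 and 54.8 with acetone. JH III replicate 2 alone was above its control level, at 1.48 times that level, and JH III replicate 1 was lower than acetone replicate 2. The difference of 0.96 on the log2(signal + 83) scale thus rested on 1 array, and without JH III replicate 2 it was 0.04. By its mean spo was among the lowest 25% of probe sets, which were left out of the test, and it has no p-value.

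Phantom, phm, adds the hydroxyl group of the side chain's outer end and is a microsomal P450. Its signals (145319_at) were 443 and 250 with JH III and 304 and 98.2 with acetone. The JH III arrays stood at 1.201 and 1.039 times their control levels, on either side of acetone replicate 1 in signal. Acetone replicates 1 and 2 stood at 2.18 and 0.33 times theirs. The log2 difference was 0.66 ± 0.72 (SE, limma adjusted p = 0.864).

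Disembodied, dib, a mitochondrial P450, acts next on the side chain. It was measured (142177_at) at 222 and 80.3 in JH III females and at 203 and 37.5 in acetone females. Only acetone replicate 1 exceeded its control level, at 1.46 times that level, so that dib was not measurably above background in either JH III array. The control level was 139 in acetone replicate 1 and 369 in JH III replicate 1, where the dib signal was the higher. JH III replicate 1 and acetone replicate 1 were the higher array of each pair and close to each other. The log2 difference was 0.27 ± 0.87 (SE, limma adjusted p = 0.957). Its sign turned to -0.36 without acetone replicate 2 and to -0.19 without JH III replicate 1.

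Shadow, sad, the mitochondrial P450 that finishes ecdysone, was the hydroxylase with a signal above the control level on every array. Its probe set (149713_at) gave 1971 and 1284 with JH III and 799 and 1476 with acetone. Acetone replicate 2 lay above JH III replicate 2, and the low value was that of acetone replicate 1. The log2 difference was 0.52 ± 0.40 (SE, limma adjusted p = 0.805), with a 95% interval of -0.28 to 1.31. Set against each array's own control level, sad stood at 5.35 and 5.34 times that level with JH III and at 5.74 and 5.00 times with acetone. When all arrays were scaled to their control levels, an alternative chosen after the data were seen, its log2 difference was -0.00271. Without acetone replicate 1 it was 0.10.

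Shade, shd, makes the active hormone and is a mitochondrial P450 as well. It read (148757_at) 463 and 172 with JH III and 41.7 and 192 with acetone. JH III replicate 1 alone passed its control level, at 1.26 times, and acetone replicate 2 was higher than JH III replicate 2. The log2 difference was the largest of the tested members, 1.01 ± 0.80 (SE, limma adjusted p = 0.812), with a 95% interval from -0.58 to 2.60. It was 0.44 without acetone replicate 1, the array with the low value, and 0.46 without JH III replicate 1.

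The other members are not enzymes of the chain. Ecdysoneless (ecd) is a conserved protein named for a mutant that lacks the hormone, and it also takes part in messenger RNA splicing. Its signals (152574_at) were 1084 and 667 with JH III and 866 and 468 with acetone, above the control level on every array. The replicate 1 arrays were the higher of each pair, and acetone replicate 1 exceeded JH III replicate 2. The log2 difference was 0.37 ± 0.47 (SE, limma adjusted p = 0.887; 95% interval -0.56 to 1.31).

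Without children (woc) encodes a zinc finger protein whose loss lowers the hormone in larvae. It was at 142 and 442 (150721_at) in JH III females and at 210 and 160 in acetone females. The highest and the lowest of the 4 values were thus both from JH III arrays, and 1 array of each group was above the control level. The difference of 0.37 ± 0.75 on the log2 scale (SE, limma adjusted p = 0.936) became -0.24 without JH III replicate 2.

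Start1 carries a START domain, a fold that binds sterols, and is thought to move cholesterol inside steroid-making cells. Its probe set (154214_at) read 1125 and 629 with JH III, on either side of 701 and 731 with acetone. The acetone arrays were within 1.04-fold of each other, while the JH III arrays were 1.79-fold apart. The log2 difference was 0.22 ± 0.46 (SE, limma adjusted p = 0.939; 95% interval -0.70 to 1.13), and it was -0.17 without JH III replicate 1.

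**Figure D2:**
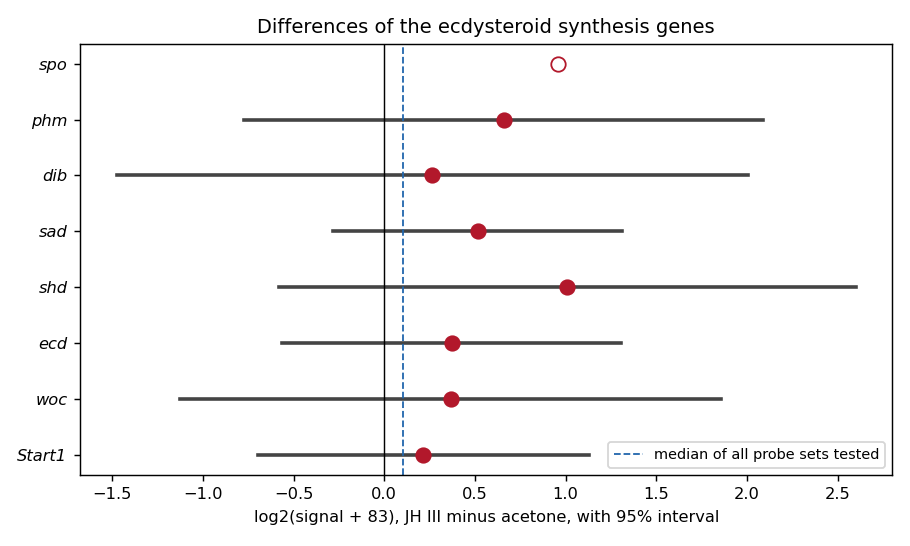
Difference of each measured gene (JH III minus acetone, horizontal axis, log2(signal + 83)) with limma's 95% interval as a line, and the median of all probe sets tested as a dashed line. All points are right of 0 and every interval spans it, and the open circle for spo marks a gene without a test.

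The spread between replicates was larger than the difference between treatments in every measured member. In 0 of 8 members did the log2 difference exceed the larger of the gaps between replicates of a treatment, beside 23.9% of all probe sets tested. A difference that large requires groups that do not overlap, so this count follows from the overlap given above and is no separate result. Of the 4 pairings of a JH III array with an acetone array, JH III was higher in 3 for 6 members, and in 2 for woc and Start1. The limma intervals show what these arrays leave possible under the deposited scaling and with a variance borrowed across probe sets. On the scale of signal + 83 they ran from 0.822-fold to 2.48-fold for sad, from 0.677-fold to 2.47-fold for ecd and from 0.617-fold to 2.18-fold for Start1. For the members near background they were wider, up to 6.06-fold for shd and down to 0.36-fold for dib. A change of 2-fold upward in any tested member is inside its interval. The widths depend on the settings. For sad the SE of 0.40 became 0.55 without a variance trend and 0.83 when scaled to the control level. For shd the SE of 0.80 became 0.63 and 0.81.

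Some members followed shared orders over the arrays that cut across the treatments, while spo, woc and Start1 each had an order of its own. For phm, dib and ecd the order from high to low was JH III replicate 1, acetone replicate 1, JH III replicate 2, acetone replicate 2, an order that 4.16% of all probe sets tested had. For sad and shd it was JH III replicate 1, acetone replicate 2, JH III replicate 2, acetone replicate 1, which 8.43% had. JH III replicate 1 was the highest array for 6 of 8 members, beside 37.1% of all probe sets apart from controls, and acetone replicate 1 was the lowest for 3 of 8, beside 35.3%. These are the arrays with the highest and the lowest hybridization controls. Relative to their means over the arrays, on the log2 scale, those controls stood at 1.36 and 0.12 with JH III and at -1.44 and -0.03 with acetone. The matching values for shd were 1.54 and 0.11 with JH III and -1.93 and 0.28 with acetone, and for sad 0.58 and -0.03 with JH III and -0.72 and 0.17 with acetone. Unlike the controls, phm, dib and ecd stood above their means in acetone replicate 1, at 0.34, 0.91 and 0.24. With so few arrays such likeness is a description of these samples only.

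**Figure D3:**
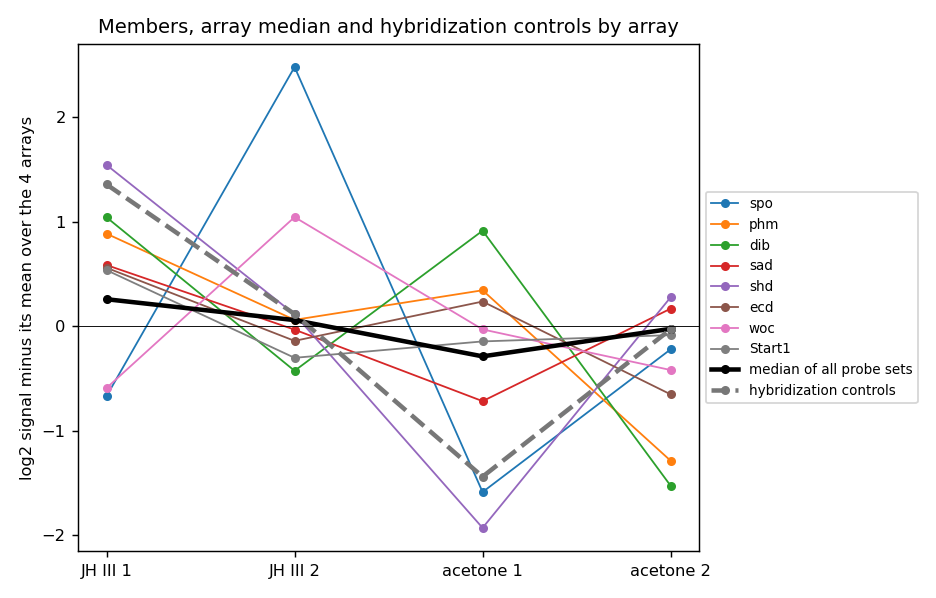
Signal of each member by array, as log2 minus its own mean over the 4 arrays, with the median of all probe sets (thick black line) and the hybridization controls (thick dashed line). The lines of sad and shd run like the controls, highest in JH III replicate 1 and lowest in acetone replicate 1, while spo and woc peak in JH III replicate 2.

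The signs of the members depended on the scaling between arrays. Quantile normalization turned 0 of the 8. With each array centred on its median, 1 turned (Start1) and the median of the members was 0.21, while that of all probe sets tested was -0.14. With each array scaled to its control level, the alternative chosen after the data were seen, 5 turned (dib, sad, ecd, woc and Start1) and the median was -0.012, while that of all probe sets tested was -0.34. Relative to all probe sets, the members' median was 0.34 higher as deposited, 0.34 higher after median centring and 0.33 higher after scaling to the control level. That distance was 0.08 without acetone replicate 2 and 0.60 without acetone replicate 1. The lowest limma adjusted p of any member over all alternatives was 0.332, for shd.

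**Figure D4:**
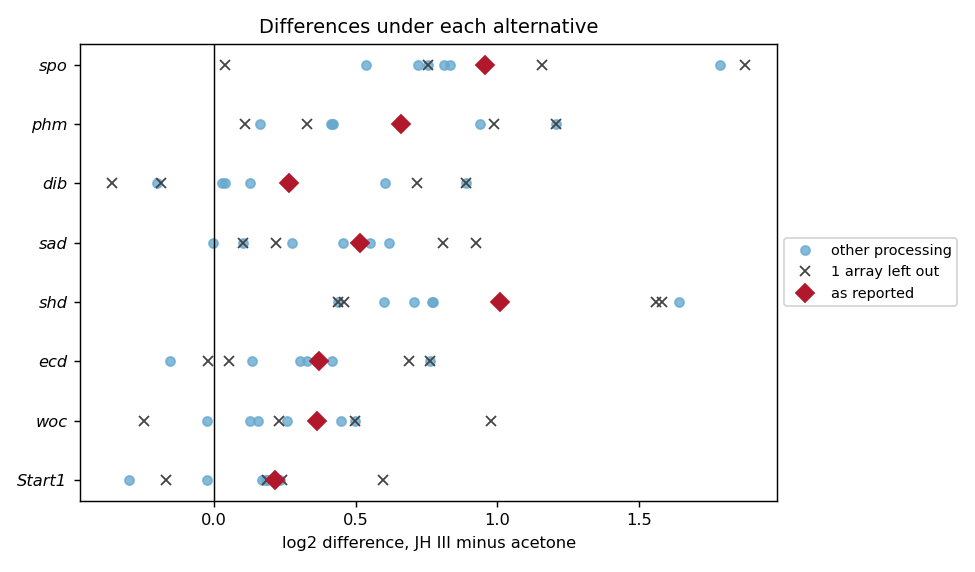
Log2 difference of each member (JH III minus acetone, horizontal axis) as reported (diamonds), under other processing (circles) and with 1 array left out (crosses). The points of phm, shd and spo stay right of 0, and those of dib, sad, ecd, woc and Start1 reach 0 or pass it.

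Around the synthesis chain, 20 related genes of sterol traffic, hormone release, hormone breakdown and regulation were looked up, and 18 had 21 probe sets. Of the 12 probe sets tested, limma called 0, and 2 (ftz-f1 and kni) had an unadjusted limma p under 0.05. By the t-test that the labels name, 0 of the 12 had an unadjusted p under 0.05. The gene kni passed the filter on low signals through its acetone arrays. Its unadjusted limma p was 0.0622 with no filter and 0.116 with a filter of 50%. The groups did not overlap in 5 of the 12, 2 higher and 3 lower with JH III, beside 22.2% and 15.3% of all probe sets tested. Further synthesis genes gave no difference beyond the spread between arrays. The short-chain dehydrogenase gene sro read 434 and 108 with JH III and 92.6 and 301 with acetone (log2 difference 0.27 ± 0.77 SE, limma adjusted p = 0.951). Cyp6t3, a P450 reported in the larval gland, read 495 and 265 with JH III and 248 and 364 with acetone, and its difference of 0.22 turned to -0.027 after quantile normalization. The glutathione S-transferase nobo, listed as GstE14, was below the control level on every array, at 50.04 and 29.3 with JH III and 19.6 and 32.1 with acetone.

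Of the breakdown enzymes, Cyp18a1, the P450 that inactivates the hormone, was above the control level on all arrays and did not separate the groups. Its signals were 909 and 659 with JH III and 734 and 911 with acetone, which differ by -0.07 ± 0.45 on the log2 scale (SE, limma adjusted p = 0.980). Ecdysone oxidase (Eo) read 44.5 and 34.5 with JH III and 104 and 239 with acetone, all below the control level, and was not tested.

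No gene of sterol traffic or hormone release passed the test. The sterol transporter genes Npc1a and Npc2a had their JH III arrays below their acetone arrays, without overlap. Npc1a read 411 and 461 with JH III and 567 and 627 with acetone (log2 difference -0.39 ± 0.53 SE, limma adjusted p = 0.897). Npc2a read 1433 and 1942 with JH III and 2275 and 2164 with acetone (-0.39 ± 0.37 SE, limma adjusted p = 0.843). Atet, an ABC transporter that loads ecdysone into vesicles for release from the larval gland, read 767 and 444 with JH III and 230 and 299 with acetone. Its log2 difference was 0.95 ± 0.59 (SE, limma adjusted p = 0.767). It was 0.49 when scaled to the control level and 0.61 without JH III replicate 1.

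Among the regulators, the nuclear receptor gene ftz-f1, known to drive dib and phm in the larval gland, had 1235 and 833 with JH III and 354 and 541 with acetone. Both JH III arrays were above both acetone arrays, with a log2 difference of 1.07 ± 0.48 (SE, unadjusted p = 0.0286, limma adjusted p = 0.636). Scaled to the control level it was 0.58. The unadjusted limma p was above 0.05 under that scaling (0.467), after median centring (0.0874), without a variance trend (0.0733), with the chip lot as a block (0.204), without JH III replicate 1 (0.162) and without acetone replicate 1 (0.168). The zinc finger gene kni, a further regulator of the gland's enzymes, had 63.6 and 155 with JH III, both below the control level, and 256 and 773 with acetone, where both arrays were above theirs. Its log2 difference was -1.53 ± 0.74 (SE, unadjusted p = 0.0415, limma adjusted p = 0.664). Acetone replicate 1 (256) lay below the control level of JH III replicate 1 (369), so that the control levels give no least fold change for this pair of arrays. The size of the kni difference rested on acetone replicate 2, without which it was -0.86. The zinc finger gene ouib read 49.7 and 52.2 with JH III and 267 and 97.3 with acetone, and it was under the filter and not tested. Hr4 and br each had 1 untested probe set with lower JH III arrays, that of Hr4 below the control level on every array. The second Hr4 probe set read 48.5 and 53.6 with JH III and 21.4 and 62.4 with acetone, and the brightest of br read 441 and 63.4 with JH III and 32.1 and 507 with acetone, so that both overlapped.

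**Figure D5:**
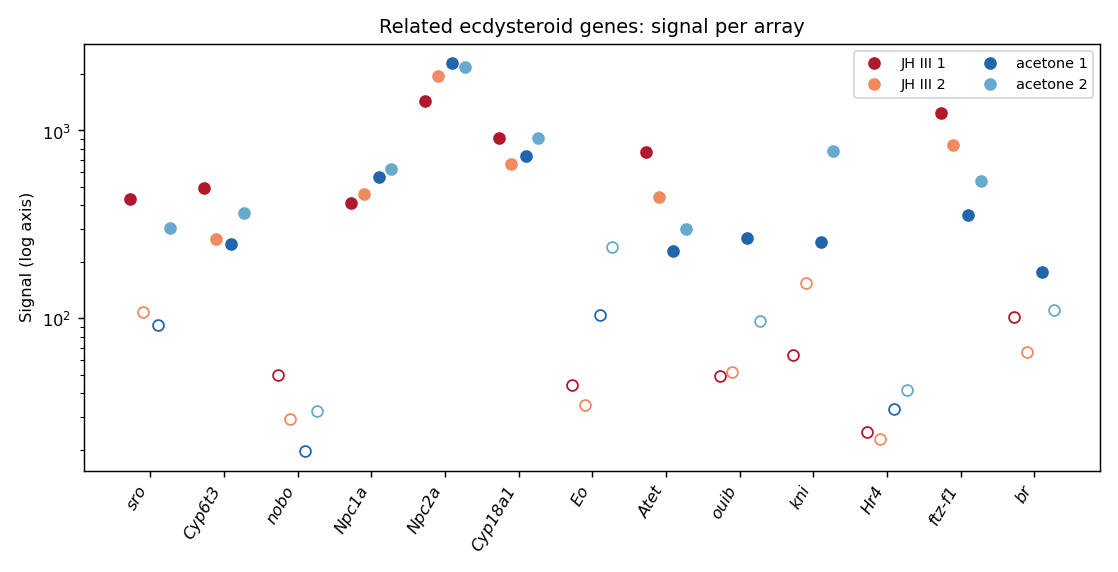
Signal per array (vertical log axis) of the related genes that are named by role or whose groups did not overlap, with JH III arrays left of acetone arrays and open points at or below the array's control level. Both JH III points are above both acetone points for Atet and ftz-f1, and below them for Npc1a, Npc2a, Eo, ouib, kni and 1 probe set each of Hr4 and br, whose other probe sets overlapped. These are 2 higher and 7 lower of 21 probe sets, beside 3305 higher and 1871 lower of all 13966. Of the lower ones, Eo, ouib and those of Hr4 and br had low signals and were not tested.

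Markers of the tissues that make or use the hormone were read on the same arrays. The yolk genes Yp1, Yp2 and Yp3, which mark females, were above the control level on all arrays, and 1 of 16 probe sets for male accessory gland and testis genes was. The log2 differences of Yp1, Yp2 and Yp3 were -0.27, 0.04 and -0.42, and limma called 0 of them. Of these, only Yp3 did not overlap, lower with JH III, beside 15.3% of all probe sets tested. Of 12 probe sets for eggshell genes of the follicle cells, 6 were above the control level on all 4 arrays and 10 had a positive difference as deposited, with a median of 0.73 on the log2 scale. Scaled to the control level, Vm26Aa (-0.45), Vm34Ca (-0.51) and Cp19 (-0.077) turned negative, and the other positive ones stayed positive. Limma called 0 of them, and 5 had an unadjusted limma p under 0.05, beside 7.29% of all probe sets tested. Of these 5, Cp16 was lower with JH III (log2 difference -1.48). Cp15 overlapped, at 4261 and 2757 with JH III and 5747 and 99.3 with acetone, and so did Vm32E. Vm26Ac, also among the 5, passed the filter on low signals through its JH III arrays. It read 872 and 254 with JH III and 29.5 and 61.1 with acetone, where both arrays were below the control level. The groups did not overlap in 2 eggshell probe sets higher and 1 lower with JH III, beside 22.2% and 15.3% of all probe sets tested. The summed signals of the 12 were 36157 and 47778 with JH III and 37551 and 36393 with acetone. Of 5 germline probe sets, 2 were above the control level on all arrays, bam was below it on all, and the sums were 4316 and 5423 with JH III and 3441 and 3606 with acetone. Most of each sum came from osk, which overlapped, at 2537 and 4093 with JH III and 2726 and 2587 with acetone. Only otu did not overlap, higher with JH III, beside 22.2% of all probe sets tested. Scaled to the control level, vas (-0.17), osk (-0.27) and bam (-0.0063) were negative, and grk (0.010) and otu (0.90) positive. Of 6 fat body probe sets, 4 were above the control level on all arrays and Fbp2 was below it on all. They summed to 11644 and 12418 with JH III and to 12324 and 12945 with acetone. The part of ovary content in the synthesis genes' values was not tested.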

How the data were processed

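The deposited table holds 1 linear signal intensity per probe set and array, which the authors had scaled so that trimmed means are equal. Trizol extraction and a biotin label are stated per the labels. Which software summarised the probes was not given in the sources used here. No genome build is named either, so no coordinates are given. Probe sets were named through a 2016 platform annotation where it gives 1 symbol (12442 of 13966), and phm through its gene number.

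Values were tested as log2(signal + 83), 83 being the 25th percentile of all values, which understates changes of low signals. The lowest 25% by mean were left out. limma 3.58.1 in R 4.3.3 was used (lmFit, eBayes with a trend, two-sided, 2 residual and 67.4 moderated degrees of freedom), with Benjamini-Hochberg adjustment. The code of the fit was run on simulated data with a common spread and no differences between arrays. It therefore does not test the fit for arrays as unlike as these. The labels' t-test was an alternative. Tables were made in Python 3.11.15 (pandas 2.3.3) and plots with matplotlib 3.10.9.

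Samples were grouped by their titles, and they are separate pools of flies. Precision is limited by there being 2 arrays for each treatment. Same-numbered arrays did not deviate together (r = -0.096). All measured members are named, and related genes were named by role, by groups that did not overlap or by an unadjusted p under 0.05. Further br and Hr4 values were picked after they were seen. The members and lists were chosen with earlier results of these data known.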

Additional observations from a re-analysis of the deposited data

How the results depend on the processing

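No synthesis gene and no related gene was called by limma or by the labels' t-test under any of the alternatives run. The count over all probe sets, 17 as reported, was 2 after quantile normalization, median centring, no filter, a filter of 50%, the replicate block or scaling to the control level, 4 with the chip lot as a block, and 0 without a variance trend or by the labels' t-test (696 and 606 at an unadjusted p under 0.05). With 1 array left out it was 4 to 30 (4 without JH III replicate 1 or acetone replicate 1, 28 without JH III replicate 2 and 30 without acetone replicate 2). The members' median difference, 0.44, was 0.21 after median centring, -0.012 when scaled to the control level and 0.24 to 0.70 with 1 array left out (lowest without acetone replicate 2, highest without JH III replicate 2). Members whose groups did not overlap, 0 as reported, were 1 after scaling to the control level (29.8% of all probe sets tested) and 3 to 7 with 1 array left out (7 without JH III replicate 2, 3 without any other), where fewer arrays have to be clear of each other (64.1% to 77.4% of all probe sets tested). The count above the control level on all arrays was 3 to 4.

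Signs turned for these genes, none of them called. With 1 array left out the ranges were -0.36 to 0.89 for dib, -0.021 to 0.76 for ecd, -0.24 to 0.98 for woc, -0.17 to 0.60 for Start1, -0.44 to 0.99 for sro, -0.14 to 0.59 for Cyp6t3 and -0.28 to 0.14 for Cyp18a1, against positive differences as reported for all but Cyp18a1 (-0.07). With the chip lot as a block, which amounts to leaving out acetone replicate 1, sro was at -0.29. After median centring Start1 was at -0.023, Cyp6t3 at -0.016 and nobo at -0.069, and after quantile normalization Cyp6t3 at -0.027. Scaled to the control level, dib was at -0.20, sad at -0.00271, ecd at -0.15, woc at -0.022, Start1 at -0.30, sro at -0.097 and Cyp6t3 at -0.23. The cause was not tested. The replicate block left each difference as it was (0.44 for the members' median) and changed no call of a named gene. Signal near background is a limit for spo, dib and shd, above the control level on 1 array each, and for woc, above it on 2. It is also a limit for phm, at 1.201 and 1.039 times that level with JH III and at 2.18 and 0.33 times with acetone.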
